A study of Homo sapiens with 6 samples.

Results

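Solute carriers are the membrane proteins, named SLC with a family number, that move amino acids, metals, ions, sugars, nucleosides and other small molecules across the plasma membrane and organelle membranes. The carriers described here were all rows of the deposited transcript table whose gene name followed that pattern, with the mitochondrial SLC25 family and SLC45A3 left out. This rule used names only and no measured value, and it took in 137 of the 11848 gene names listed, with 338 of 29091 transcripts. Of these 137 carriers, 125 passed the filter used for testing, which asked for an average of 1 FPKM or more across all 6 libraries, FPKM being a fragment count scaled to transcript length and to library size, so that levels of different genes can be compared. They fell into 14 classes by what they carry, the largest being metals with 25 carriers, amino acids and peptides with 23, sugars and polyols with 14 and inorganic cations with 11. A further 7 had no substrate assigned.

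The samples were LNCaP-AI cells, an androgen-independent derivative of LNCaP prostate cancer cells obtained by long culture in medium whose serum had been stripped of androgen. Per the labels, 3 samples were transfected with an shRNA that targets PCAT1, a long non-coding RNA (shPCAT1), and 3 with a scramble shRNA (shSCR). All 6 shared the line and the lack of androgen, and 1 shRNA sequence against PCAT1 was used, so an effect of that sequence apart from PCAT1 cannot be told apart from the knockdown. The labels do not say that replicates came from separate cultures, so the spread behind each p-value is that of these libraries and may be technical. PCAT1 itself was not analysed here.

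As background, carriers sit in several cellular circuits that matter in prostate cancer. Amino acid carriers supply leucine, glutamine and cystine, and amino acid levels in the lysosome are read out to the growth kinase mTORC1. Normal prostate epithelium accumulates zinc, an ability that is largely lost in prostate cancer, and zinc is moved into the cytosol by SLC39 (ZIP) carriers and out of it by SLC30 (ZnT) carriers. Chloride cotransporters of the SLC12 family set cell volume and chloride, and are controlled by a kinase named STK39 (SPAK).

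The library of shSCR replicate 3 stood apart. Across the 125 carriers its Pearson correlation with the other libraries was between 0.807 and 0.857, against 0.901 to 0.955 among the other 5, as a description across genes. It held the highest of the 6 values for 41 carriers and the lowest for 38, whereas no other library held the highest for more than 21 or the lowest for more than 22. The FPKM of the tested carriers summed to between 1651 and 1762 in the shPCAT1 libraries, against 1628, 1670 and 2048 in shSCR replicates 1, 2 and 3. The median coefficient of variation per carrier was 12.5% in shPCAT1 and 30.2% in shSCR (n = 3 each), and 9.65% between shSCR replicates 1 and 2. Many changes that rest on this library are therefore given with and without it. Counts of groups without overlap are given only with it. All 10 luminal prostate markers checked were listed, and 2 had a positive and 8 a negative change. ACPP (prostatic acid phosphatase) was called as higher in shPCAT1 (18.1 to 19.6 FPKM in shPCAT1, against 7.56 to 9.54 FPKM in shSCR, limma adjusted p = 0.0476). TMPRSS2 was at 37.8 to 48.2 FPKM in shPCAT1, against 72.0 to 136 FPKM in shSCR, and was called as lower without shSCR replicate 3 (limma adjusted p = 0.116 with it and 0.0198 without it). KLK3 (PSA) was at 354 to 380 FPKM in shPCAT1 and 404 to 554 FPKM in shSCR. Of markers of other cell types, 2 of 4 basal, 2 of 5 neuroendocrine, 3 of 7 stromal, 1 of 4 endothelial and 1 of 5 immune markers were listed. None of the 6 that passed the filter was called with all libraries. The basal KRT5 and KRT14, the neuroendocrine SYP and the endothelial VWF stayed between 0.284 and 2.23 FPKM in every library, whereas ENO2 was at 15.1 to 20.8 FPKM in shPCAT1 and 20.2 to 27.3 FPKM in shSCR, and CD68 at 2.58 to 15.2 FPKM in shPCAT1 and 5.14 to 21.1 FPKM in shSCR. The stromal markers summed to between 15.2 and 21.4 FPKM in shPCAT1 and between 14.3 and 30.1 FPKM in shSCR, and of them COL1A1 was lower in every shPCAT1 library (2.27 to 4.12 FPKM in shPCAT1, against 5.94 to 12.3 FPKM in shSCR, limma adjusted p = 0.203) while VIM and ACTA2 overlapped. The part of these markers in the carrier differences was not tested. In bulk samples such as these, fewer cells of a type and less RNA per cell cannot be told apart.

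Few carriers differed by more than the spread between replicates under the test. Gene sums were compared with limma on log2(FPKM + 1), shPCAT1 minus shSCR, and genes with a Benjamini-Hochberg adjusted p of at most 0.05 over all 10825 genes tested were called. Of the 125 carriers, 2 were called, SLC38A9 as higher and SLC43A1 as lower in shPCAT1, which is 1.6% of them beside 0.878% of all genes tested (0.333% higher and 0.545% lower). Before adjustment, at p of at most 0.05, 14 carriers were higher and 11 lower in shPCAT1, together 20.0% of the carriers, and 17.2% of all genes passed that bound (7.23% higher and 10.0% lower). The shPCAT1 and shSCR libraries did not overlap for 43 carriers (34.4%), 20 of them higher and 23 lower in shPCAT1, beside 32.5% of all genes, of which 14.8% were higher and 17.7% lower. All these shares lay near those of all genes. The median log2 change was -0.04 over the carriers and -0.05 over all genes tested, with 60 carriers above 0 and 65 below, and 54.2% of all genes below. In terms of mean FPKM, 5 carriers were at least 2-fold higher and 8 at least 2-fold lower in shPCAT1. The share of all genes at these bounds was not computed, and the shSCR means include replicate 3, so these 2 counts carry no comparison.

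Without shSCR replicate 3, 13 of the 125 carriers (10.4%) were called, 8 higher and 5 lower in shPCAT1, beside 8.03% of all genes (3.63% higher and 4.4% lower). The 8 higher ones were SLC38A9, SLC39A8, SLC39A6, SLC30A1, SLC11A2, SLC46A1, SLC16A9 and SLC22A3. The 5 lower ones were SLC43A1, SLC50A1, SLC36A1, SLC12A7 and SLC52A3. Among the 8 higher ones, 4 carry metals.

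**Figure D1:**
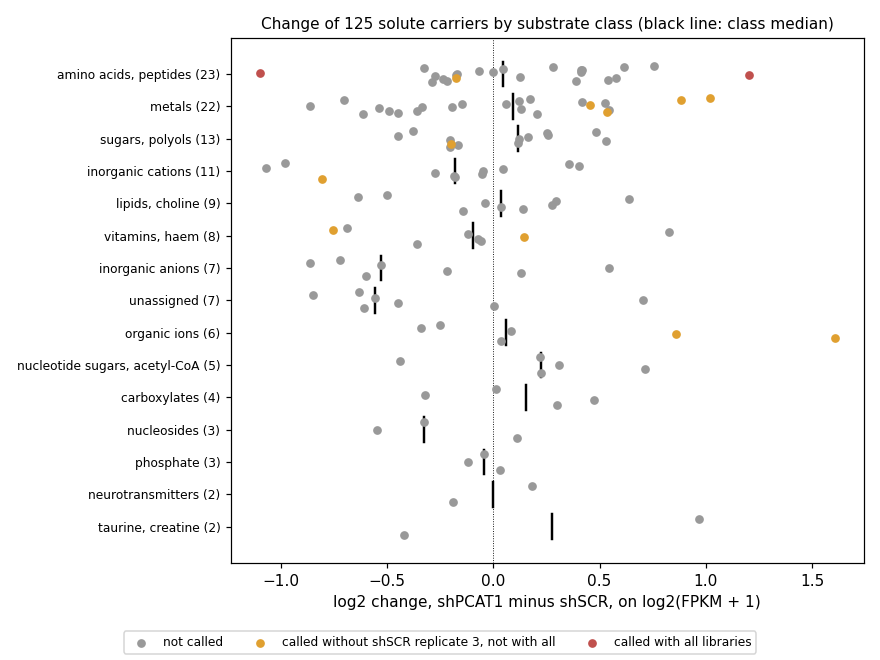
Log2 change (shPCAT1 minus shSCR, x axis, on log2(FPKM + 1)) of each of the 125 carriers tested, by substrate class with the number tested in brackets (y axis); a point is a carrier, a black line the class median, red marks the 2 carriers called with all libraries and orange those called after shSCR replicate 3 was left out. Class medians lie between -0.56 and 0.27. In the 2 largest classes the carriers spread more widely than that, from -0.86 to 1.02 for metals and from -1.10 to 1.20 for amino acids and peptides. Some small classes, such as phosphate, spread less.

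SLC38A9 was higher in shPCAT1. It is a lysosomal amino acid carrier that senses arginine and signals to mTORC1. It had 32.7, 33.7 and 33.4 FPKM in shPCAT1, against 12.8, 12.4 and 16.9 FPKM in shSCR. The 3 shPCAT1 libraries were nearly equal and all lay above every shSCR library, of which replicate 3 was the highest. The means were 33.3 ± 0.514 FPKM in shPCAT1 and 14.0 ± 2.52 FPKM in shSCR (SD, n = 3 each), a ratio of 2.37, and the log2 change was 1.20 (SE 0.17, limma adjusted p = 0.0449). Without shSCR replicate 3 the change was 1.34 (limma adjusted p = 0.0065), and over all alternatives the adjusted p ran between 0.0065 and 0.237. The change stayed above 1 in each of them, and the call was lost with a pseudocount of 0.1, with the replicate block, with GC correction of all 6 libraries and when any of the other 5 libraries was left out.

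The largest part of the difference in SLC38A9 lay in 2 short transcript models. On hg19 the gene is on chromosome 5, minus strand, and 7 of its transcripts were listed. SLC38A9-012 (54965664 to 55008130, 6 exons) had 11.9, 11.98 and 10.0 FPKM in shPCAT1, against 2.65, 2.72 and 5.90 FPKM in shSCR. SLC38A9-013 (54993707 to 55008121, 5 exons) had 10.2, 10.2 and 10.4 FPKM in shPCAT1, against 3.72, 3.53 and 4.15 FPKM in shSCR. Neither pair of groups overlapped. The transcript that encodes the full carrier, SLC38A9-001 (54921673 to 55008554, 16 exons, 1683 coding bases), had 5.37, 8.86 and 10.4 FPKM in shPCAT1, against 5.65, 5.14 and 0.853 FPKM in shSCR, and its groups overlapped. In the annotation, SLC38A9-012 and SLC38A9-013 carry 290 and 80 coding bases and have an open 3′ end, so the sum of FPKM says little about the amount of full carrier mRNA. With all libraries no SLC38A9 transcript was called, and without shSCR replicate 3 the log2 changes of SLC38A9-012 and SLC38A9-013 were 1.74 and 1.28 (limma adjusted p = 0.0439 and 0.0487).

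SLC43A1 was lower in shPCAT1. It encodes LAT3, a sodium-independent importer of leucine and other large neutral amino acids whose expression in prostate cancer cells is known to be raised by androgen receptor signalling. It had 13.7, 12.9 and 11.5 FPKM in shPCAT1, against 29.8, 29.8 and 25.6 FPKM in shSCR. Every shPCAT1 library lay below every shSCR library, with a wide gap between the groups. The means were 12.7 ± 1.10 FPKM in shPCAT1 and 28.4 ± 2.43 FPKM in shSCR (SD, n = 3 each), a ratio of 0.449, and the log2 change was -1.10 (SE 0.15, limma adjusted p = 0.0418). Without shSCR replicate 3 the change was -1.17 (limma adjusted p = 0.015), and with GC correction of all 6 libraries it was -0.78 (limma adjusted p = 0.196). Over all alternatives the change ran between -1.17 and -0.78 and the adjusted p between 0.015 and 0.288, the call being lost also with a pseudocount of 0.1, with either rescaling of the libraries, with the replicate block and when any of the other 5 libraries was left out.

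Both full transcripts of SLC43A1 were lower. The gene is on chromosome 11 of hg19, minus strand. SLC43A1-001 (57252007 to 57283259, 15 exons) had 7.54, 8.69 and 4.05 FPKM in shPCAT1, against 18.0, 18.2 and 13.7 FPKM in shSCR. SLC43A1-002 (57252009 to 57282358, 15 exons) had 5.67, 4.21 and 7.40 FPKM in shPCAT1, against 11.1, 11.1 and 9.57 FPKM in shSCR. Groups did not overlap for either, and both transcripts carry 1677 coding bases and differ in where they start. Neither was called on its own, their log2 changes being -1.23 and -0.80 (limma adjusted p = 0.377 and 0.463).

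**Figure D2:**
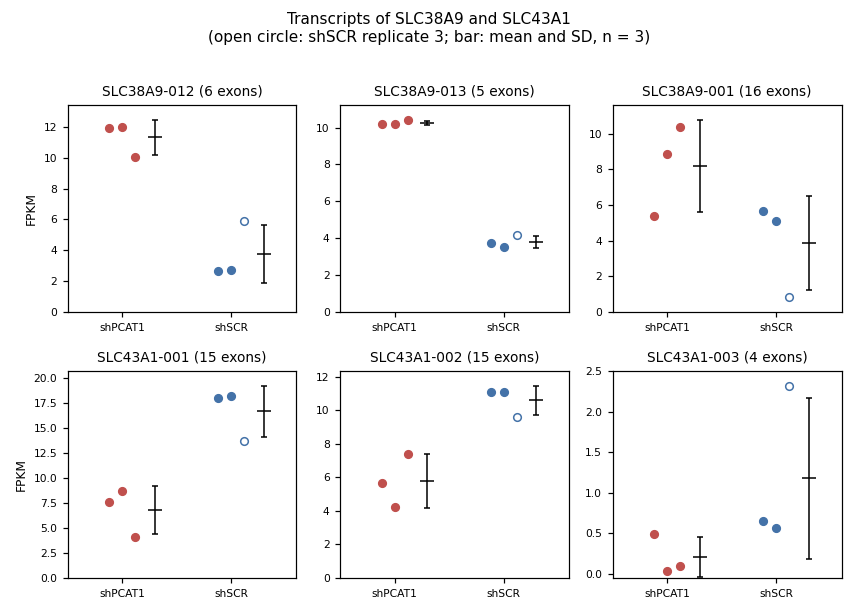
FPKM (y axis) of 3 transcripts each of SLC38A9 (upper row) and SLC43A1 (lower row) in shPCAT1 (left, red) and shSCR (right, blue) libraries; points are the 3 replicates, the open circle is shSCR replicate 3, and the bar gives the mean and SD. SLC38A9-012 and SLC38A9-013 separate the groups and SLC38A9-001 does not, while SLC43A1-001 and SLC43A1-002 are lower in every shPCAT1 library.

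Start-site sequences of these genes are shown because the 2 SLC43A1 transcripts use separate start regions and SLC38A9-012 and SLC38A9-013 start near one another. Each is 250 bases before and 50 after a RefSeq transcript start (GRCh38.p14), and capitals mark matches to the motifs named below. The 2 regions of SLC43A1 were chr11:57515653-57515952 and chr11:57514860-57515159, minus strand. By exact match to GRCh37, their starts lie at 57283175, which is 16 bases from the start of the listed SLC43A1-003, and at 57282382, which is 24 bases from the start of SLC43A1-002. The SLC38A9 region shown was chr5:55712286-55712585, minus strand, whose start lies 5 bases from that of the listed SLC38A9-010. That transcript model also has an open 3′ end (5 exons, 393 coding bases). Other RefSeq regions of SLC38A9 are not shown, among them an internal start 322 bases from that of the short SLC38A9-017. The full SLC38A9-001 starts at 55008554 on hg19, outside the region shown (55008114 to 55008413 on GRCh37).
SLC43A1, upstream start: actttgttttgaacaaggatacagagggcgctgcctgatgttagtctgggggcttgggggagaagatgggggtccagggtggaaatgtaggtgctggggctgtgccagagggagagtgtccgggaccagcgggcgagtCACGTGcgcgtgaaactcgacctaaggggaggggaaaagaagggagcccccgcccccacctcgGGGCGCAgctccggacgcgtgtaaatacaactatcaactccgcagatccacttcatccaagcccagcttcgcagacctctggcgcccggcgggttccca
SLC43A1, downstream start: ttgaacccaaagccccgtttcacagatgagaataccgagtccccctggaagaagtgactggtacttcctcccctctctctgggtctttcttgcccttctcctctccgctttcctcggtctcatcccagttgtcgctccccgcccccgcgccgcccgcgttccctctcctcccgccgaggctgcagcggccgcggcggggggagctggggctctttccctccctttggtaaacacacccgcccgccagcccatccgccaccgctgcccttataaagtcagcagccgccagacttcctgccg
SLC38A9: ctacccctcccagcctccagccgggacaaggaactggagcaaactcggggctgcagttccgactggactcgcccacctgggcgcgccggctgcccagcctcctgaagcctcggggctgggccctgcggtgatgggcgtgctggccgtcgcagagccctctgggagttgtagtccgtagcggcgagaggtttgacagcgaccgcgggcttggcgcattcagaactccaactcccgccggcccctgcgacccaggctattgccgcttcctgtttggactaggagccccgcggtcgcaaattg

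A few motifs were searched on both strands, and none of them contains another. The androgen receptor half-site (AGAACA) was in 14.8% of all 35116 RefSeq promoters of this length, the metal response element core (TGCACNC or TGCGCNC) in 29.6%, the C/EBP-ATF response element of amino acid starvation (TGATGCAA) in 0.866% and the E-box (CACGTG, the same on both strands) in 7.26%. Of the 125 carriers tested, 101 matched a RefSeq entry, with 164 promoters, of which 7.32%, 33.5%, 1.83% and 12.8% held these motifs in the same order. The upstream SLC43A1 region held 1 E-box and 1 metal response core, and the downstream SLC43A1 region and the SLC38A9 region held none of these letters. A match describes letters only.

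No other amino acid carrier was called with all libraries. Of 23 amino acid and peptide carriers tested, 12 had a positive and 11 a negative change, the class median was 0.05, and 2 were called, those above. SLC38A1, a sodium-coupled importer of glutamine, had 32.0, 32.9 and 42.4 FPKM in shPCAT1, against 20.9, 21.2 and 19.8 FPKM in shSCR. All shPCAT1 libraries lay above the shSCR libraries, and the log2 change was 0.75 (SE 0.16, limma adjusted p = 0.113). SLC38A2, its starvation-induced relative, had 38.2, 26.4 and 24.6 FPKM in shPCAT1, against 24.1, 23.1 and 18.0 FPKM in shSCR, with groups that came close to meeting and a log2 change of 0.42 (limma adjusted p = 0.383). That change was 0.23 without shPCAT1 replicate 1 and 0.08 with GC correction.

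The heavy chain SLC3A2 (4F2hc), which brings several light chains to the plasma membrane, was the highest carrier of all, at 82.6, 73.8 and 85.3 FPKM in shPCAT1, against 85.2, 84.3 and 129 FPKM in shSCR. Only shSCR replicate 3 stood out, and the log2 change was -0.27 with it and -0.07 without it. One of its partners, the cystine and glutamate exchanger SLC7A11 (xCT), had 37.97, 38.8 and 39.0 FPKM in shPCAT1, against 31.0, 31.5 and 15.7 FPKM in shSCR. Its groups did not overlap, but the low shSCR replicate 3 widened the spread, and the log2 change was 0.61 with it (limma adjusted p = 0.337) and 0.30 without it (limma adjusted p = 0.056). Another partner, the leucine importer SLC7A5 (LAT1), had 7.13, 7.04 and 8.14 FPKM in shPCAT1, against 3.22, 7.10 and 6.73 FPKM in shSCR, with overlap. SLC7A5 has near-identical pseudogene copies, so its values are uncertain.

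The glutamine carrier SLC1A5 (ASCT2) varied widely within groups, at 69.8, 36.9 and 25.6 FPKM in shPCAT1 and 29.2, 55.0 and 47.6 FPKM in shSCR. SLC7A1, which imports arginine and lysine and was looked at after its values were seen, had 52.5, 54.4 and 54.0 FPKM in shPCAT1, against 60.1, 13.9 and 53.1 FPKM in shSCR. There shSCR replicate 2 and not replicate 3 was the odd library. SLC36A1, a proton-coupled amino acid carrier of the lysosome that was likewise outside the rule for named genes, had 3.86, 3.96 and 4.0024 FPKM in shPCAT1, against 7.50, 6.81 and 1.63 FPKM in shSCR. The shPCAT1 libraries lay between shSCR replicate 3 and the other shSCR libraries, so that the log2 change was -0.18 with it (limma adjusted p = 0.854) and -0.72 without it (limma adjusted p = 0.026).

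**Figure D3:**
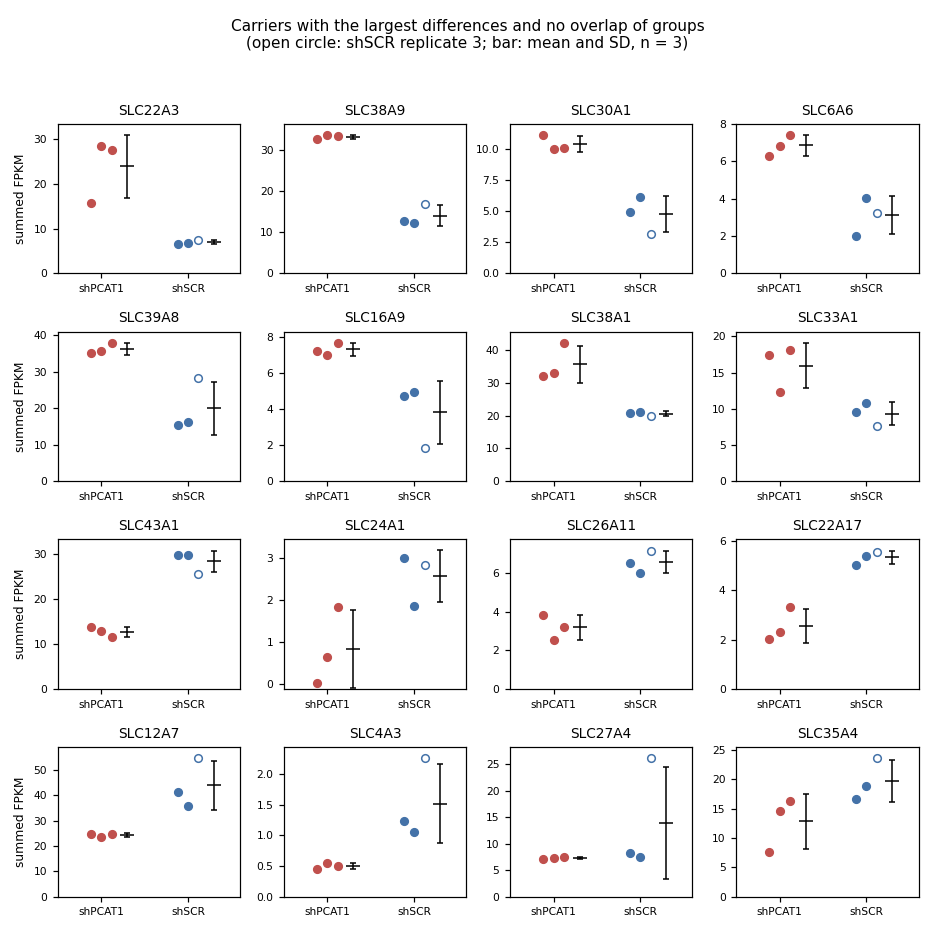
Summed FPKM per gene (y axis, from 0 or below it where an error bar reaches there) in shPCAT1 (left, red) and shSCR (right, blue) libraries for the 16 carriers with the largest differences (8 in each direction) whose groups did not overlap; points are the 3 replicates, the open circle is shSCR replicate 3, and the bar gives the mean and SD. SLC38A9 and SLC43A1 show groups that are tight beside their difference, while in SLC27A4 and SLC4A3 shSCR replicate 3 lies far above the other shSCR libraries. SLC4A3 and SLC24A1 passed the filter through their shSCR values.

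Carriers of zinc, iron and manganese included several that were higher in every shPCAT1 library, but none was called with all libraries. Among all metal carriers tested, 5 were higher and 3 lower in every shPCAT1 library, beside 14.8% and 17.7% of all genes. Of 22 metal carriers tested, 12 had a positive and 10 a negative change, with a class median of 0.09. At an unadjusted limma p of at most 0.05, 5 were higher and 2 lower, beside 7.23% and 10.0% of all genes. The metal carriers had a median GC content of 43.3%, against 51.8% over all carriers tested. Without shSCR replicate 3, 4 of the 22 were called, all higher, beside 3.63% of all genes called as higher in that fit.

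SLC30A1 (ZnT1), which exports zinc through the plasma membrane, had 11.2, 10.0 and 10.1 FPKM in shPCAT1, against 4.97, 6.12 and 3.20 FPKM in shSCR. Every shPCAT1 library lay above every shSCR library, of which replicate 3 was the lowest. The ratio of means was 2.19 and the log2 change 1.02 (SE 0.23, limma adjusted p = 0.124), and without shSCR replicate 3 the change was 0.81 (limma adjusted p = 0.0309). The SLC30A1 start region (RefSeq, GRCh38.p14, chr1:211579112-211579411, minus strand) is shown because the gene is a classical target of the metal-responsive factor MTF1, whose core motif, in capitals, was found in it 2 times, beginning 49 bases before and at base 25 after the start. The RefSeq start lies 419 bases from that of the listed transcript.
SLC30A1: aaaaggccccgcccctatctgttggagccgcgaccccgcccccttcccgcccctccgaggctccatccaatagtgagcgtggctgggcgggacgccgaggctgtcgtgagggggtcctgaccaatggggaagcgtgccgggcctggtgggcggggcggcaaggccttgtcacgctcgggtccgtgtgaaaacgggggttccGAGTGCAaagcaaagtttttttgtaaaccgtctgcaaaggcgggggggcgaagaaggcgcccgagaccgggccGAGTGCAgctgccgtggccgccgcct

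Of the ZIP carriers described here, which move zinc into the cytosol, 2 were higher in every shPCAT1 library and 1 lower. Over all genes tested, 14.8% were higher and 17.7% lower in this way. SLC39A8 (ZIP8), which also takes up manganese and iron, had 35.1, 35.6 and 37.95 FPKM in shPCAT1, against 15.4, 16.1 and 28.3 FPKM in shSCR. Here shSCR replicate 3 lay between its own group and shPCAT1. The log2 change was 0.88 with that library (SE 0.25, limma adjusted p = 0.187) and 1.15 without it (limma adjusted p = 0.00857).

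SLC39A6 (ZIP6, LIV-1) had 69.7, 72.9 and 73.3 FPKM in shPCAT1, against 51.9, 52.0 and 44.7 FPKM in shSCR. The groups did not overlap, and the log2 change was 0.53 (SE 0.13, limma adjusted p = 0.149), or 0.46 without shSCR replicate 3 (limma adjusted p = 0.0254). SLC39A1 (ZIP1), held to be the main zinc importer of prostate epithelium, had 38.9, 39.1 and 39.8 FPKM in shPCAT1, against 50.3, 45.8 and 68.1 FPKM in shSCR. It was lower in every shPCAT1 library, with a log2 change of -0.45 (limma adjusted p = 0.288) and of -0.28 without shSCR replicate 3 (limma adjusted p = 0.083).

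SLC11A2 (DMT1), an importer of ferrous iron named here after its values were seen, had 25.6, 22.2 and 23.4 FPKM in shPCAT1, against 15.3, 16.2 and 19.7 FPKM in shSCR. The groups did not overlap, and the log2 change was 0.46 (limma adjusted p = 0.243), or 0.56 without shSCR replicate 3 (limma adjusted p = 0.0361). SLC39A7 (ZIP7), which releases zinc from the endoplasmic reticulum and was the highest metal carrier, had 72.3, 74.1 and 75.6 FPKM in shPCAT1, against 69.3, 74.5 and 159 FPKM in shSCR, so that shSCR replicate 3 alone set its change of -0.34, which was 0.04 without that library. The copper importer SLC31A1 (CTR1), also named after its values were seen, had 3.75, 3.32 and 4.31 FPKM in shPCAT1, against 3.88, 4.57 and 23.1 FPKM in shSCR, with the same shSCR library far above the rest.

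The zinc-binding metallothionein MT2A, from a list of 24 carrier partners and sensors, had 51.7, 49.8 and 52.5 FPKM in shPCAT1, against 71.5, 75.0 and 72.7 FPKM in shSCR. All 3 shPCAT1 libraries were lower, with a log2 change of -0.50 (limma adjusted p = 0.142, and 0.0246 without shSCR replicate 3). With GC correction of all 6 libraries the change was -0.24 (limma adjusted p = 0.477). From the same list, the metallothioneins MT1X and MT1F (changes of -0.52 and -0.56) and MTF1 (0.12) overlapped between groups.

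**Figure D4:**
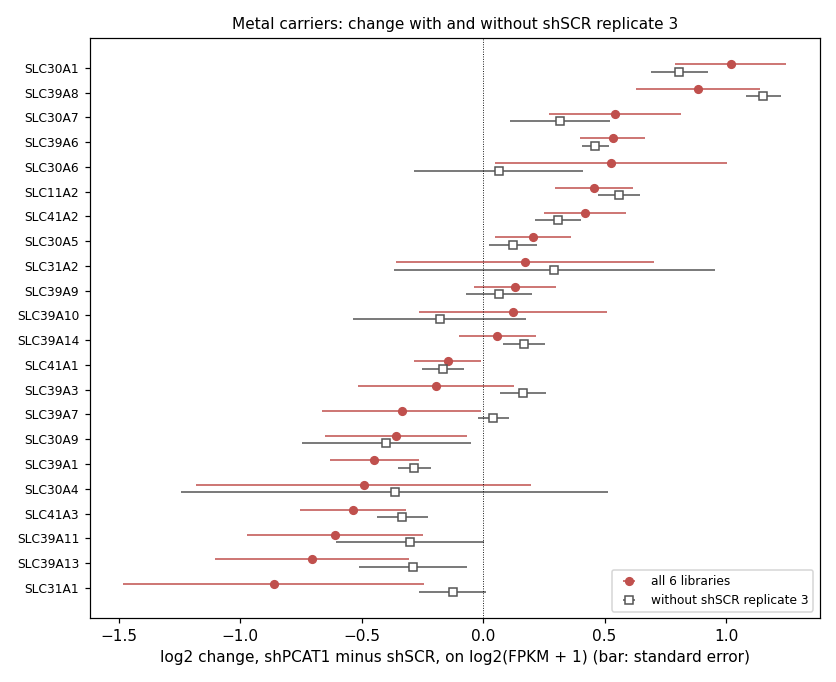
Log2 change (shPCAT1 minus shSCR, x axis, on log2(FPKM + 1)) of the 22 metal carriers tested (y axis), with all 6 libraries (red circles) and without shSCR replicate 3 (open squares); bars are standard errors. SLC30A1, SLC39A8, SLC39A6 and SLC11A2 stay above 0 in both fits, while SLC39A7 and SLC31A1 move towards 0 when that library is left out.

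Among carriers of organic ions, SLC22A3 (OCT3), which moves organic cations such as monoamines and some drugs, showed the largest log2 change of all carriers tested. It had 15.8, 28.4 and 27.6 FPKM in shPCAT1, against 6.49, 6.89 and 7.47 FPKM in shSCR. The shSCR libraries were close to each other, the lowest shPCAT1 library (replicate 1) still lay well above them, and the gap to the other shPCAT1 libraries widened the spread. The ratio of means was 3.44 and the log2 change 1.61 (SE 0.25, limma adjusted p = 0.06), which passed the threshold without shSCR replicate 3 (1.65, limma adjusted p = 0.0448) and with GC correction (1.62, limma adjusted p = 0.0493). SLC22A3 was not called in any other setting. The limma adjusted p was 0.0524 with both of these together, 0.224 with the replicate block and 0.252 without shPCAT1 replicate 3. Its single listed transcript, SLC22A3-001, spans 160769300 to 160873613 on chromosome 6 of hg19, plus strand, with 11 exons.

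SLC16A9 (MCT9), a carrier linked to carnitine, had 7.22, 7.03 and 7.69 FPKM in shPCAT1, against 4.71, 4.96 and 1.82 FPKM in shSCR. Its groups did not overlap, and the log2 change was 0.86 (SE 0.32, limma adjusted p = 0.258), or 0.51 without the low shSCR replicate 3 (limma adjusted p = 0.0413). Of the 6 organic ion carriers tested, 4 had a positive change. The taurine carrier SLC6A6 had 6.31, 6.84 and 7.42 FPKM in shPCAT1, against 2.02, 4.05 and 3.23 FPKM in shSCR. It was higher in every shPCAT1 library, with a ratio of means of 2.21 and a log2 change of 0.97 (SE 0.23, limma adjusted p = 0.137, and 0.088 without shSCR replicate 3).

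Of the carriers of inorganic ions, 5 of 7 anion carriers and 8 of 11 cation carriers had a negative change, with class medians of -0.53 and -0.18, and none was called with all libraries (before adjustment, 3 anion and 2 cation carriers had a negative change with p up to 0.05, beside 10.0% of all genes, and 1 cation carrier a positive one, beside 7.23%). The anion carriers had a median GC content of 59.0%, against 51.8% over all carriers tested. SLC12A7 (KCC4), which exports potassium with chloride, was the highest of the cation carriers, at 24.8, 23.5 and 24.6 FPKM in shPCAT1, against 41.3, 35.9 and 54.5 FPKM in shSCR. Every shPCAT1 library lay below every shSCR library. The ratio of means was 0.554 and the log2 change -0.81 (SE 0.19, limma adjusted p = 0.13), and without shSCR replicate 3 the change was -0.64 (limma adjusted p = 0.0286).

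SLC12A2 (NKCC1), which imports sodium, potassium and chloride, differed the other way, at 10.2, 11.2 and 11.1 FPKM in shPCAT1, against 8.20, 8.59 and 7.90 FPKM in shSCR. The groups did not overlap, and the log2 change was 0.35 (limma adjusted p = 0.275, and 0.088 without shSCR replicate 3). STK39 (SPAK), the kinase that switches chloride cotransporters, had 28.8, 26.6 and 28.5 FPKM in shPCAT1, against 49.1, 47.7 and 43.4 FPKM in shSCR. All its shPCAT1 values were lower, with a log2 change of -0.72 (limma adjusted p = 0.0862, and 0.0165 without shSCR replicate 3).

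Among anion carriers, SLC26A11, a chloride and sulfate carrier, had 3.82, 2.55 and 3.19 FPKM in shPCAT1, against 6.52, 6.01 and 7.15 FPKM in shSCR. Groups did not overlap, and the log2 change was -0.86 (SE 0.18, limma adjusted p = 0.107, and 0.059 without shSCR replicate 3). SLC4A2 (AE2), a chloride and bicarbonate exchanger and the highest of this class, had 34.5, 32.6 and 35.1 FPKM in shPCAT1, against 36.1, 38.3 and 86.8 FPKM in shSCR, the change being -0.53 with shSCR replicate 3 and -0.13 without it. Its relative SLC4A3 (AE3) was at 0.448 to 0.543 FPKM in shPCAT1 and 1.06 to 2.25 FPKM in shSCR. The change was -0.72 (limma adjusted p = 0.228), or -0.52 without shSCR replicate 3 (limma adjusted p = 0.0936). All its shPCAT1 values lay under the 1 FPKM bound of the filter. SLC4A3 was therefore tested only because of its shSCR values, which favours a negative change.

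The calcium exchanger SLC24A1 was low and scattered, with 0.0151, 0.651 and 1.83 FPKM in shPCAT1, against 2.99, 1.85 and 2.84 FPKM in shSCR. Its change was -1.07 (SE 0.40, limma adjusted p = 0.264), and the highest shPCAT1 value nearly met the lowest shSCR value. The shPCAT1 mean of SLC24A1 lay under the 1 FPKM bound of the filter, so it too was tested because of its shSCR values.

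Of the sodium pump list, which drives many carriers, 6 of 13 genes were listed and 5 tested, and 0 were called by limma (1 at an unadjusted p of at most 0.05, beside 17.2% of all genes), or 2 without shSCR replicate 3, both lower, beside 4.4% of all genes called as lower in that fit. The modulator FXYD5 had 1.54, 0.482 and 1.17 FPKM in shPCAT1, against 8.11, 6.61 and 1.36 FPKM in shSCR, a change of -1.44 (limma adjusted p = 0.268) and of -2.05 without shSCR replicate 3 (limma adjusted p = 0.0286).

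Sugar and monocarboxylate carriers showed no called difference with all libraries. Of 13 sugar carriers tested, 7 had a positive and 6 a negative change. SLC2A1 (GLUT1), the widespread glucose importer, had 9.65, 10.7 and 9.60 FPKM in shPCAT1, against 11.3, 12.3 and 16.8 FPKM in shSCR. It was lower in every shPCAT1 library, with a log2 change of -0.38 (limma adjusted p = 0.36), or -0.22 without shSCR replicate 3 (limma adjusted p = 0.213) and -0.18 with GC correction of all 6 libraries. SLC2A12 (GLUT12) was higher in each, at 3.80, 4.11 and 3.74 FPKM in shPCAT1, against 2.63, 2.51 and 2.04 FPKM in shSCR, with a change of 0.53 (limma adjusted p = 0.203).

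SLC50A1, a carrier of the SWEET family and the highest in the class, had 58.5, 58.7 and 59.1 FPKM in shPCAT1, against 86.3, 81.7 and 43.9 FPKM in shSCR. The shPCAT1 libraries again lay between shSCR replicate 3 and the other shSCR libraries, and the change was -0.20 with that library (limma adjusted p = 0.715) and -0.51 without it (limma adjusted p = 0.0221). The lactate carrier SLC16A1 (MCT1) had 35.9, 34.3 and 71.6 FPKM in shPCAT1, against 54.6, 23.7 and 24.7 FPKM in shSCR, with 1 high library in each group and overlap. Its low-level relative SLC16A13 had 1.71, 1.37 and 1.77 FPKM in shPCAT1, against 1.93, 2.49 and 2.39 FPKM in shSCR, with a change of -0.32 (limma adjusted p = 0.407) that turned to 0.10 with GC correction.

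Among vitamin carriers, 2 of 8 tested had a positive change. The riboflavin carrier SLC52A3 had 1.97, 1.87 and 2.85 FPKM in shPCAT1, against 5.87, 5.12 and 2.73 FPKM in shSCR. The value of shSCR replicate 3 lay among the shPCAT1 values, and the change was -0.75 with it (limma adjusted p = 0.266) and -1.02 without it (limma adjusted p = 0.0429). The other riboflavin carrier, SLC52A2, had 23.0, 21.1 and 31.2 FPKM in shPCAT1, against 25.4, 27.4 and 94.4 FPKM in shSCR, where replicate 3 stood far above the rest.

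Both folate carriers showed the same high shSCR replicate 3. SLC19A1 (reduced folate carrier) had 8.33, 8.77 and 10.0 FPKM in shPCAT1, against 6.93, 6.93 and 17.5 FPKM in shSCR, so that its change was -0.07 with that library and 0.34 without it. SLC46A1 (proton-coupled folate transporter), named after its values were seen, had 7.37, 6.43 and 7.30 FPKM in shPCAT1, against 3.62, 4.22 and 14.8 FPKM in shSCR, and its change was 0.14 with replicate 3 (limma adjusted p = 0.889) and 0.71 without it (limma adjusted p = 0.0364).

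Lipid, nucleoside, nucleotide sugar and phosphate carriers held no call in either fit. The fatty acid carrier SLC27A1 had 2.64, 3.46 and 1.97 FPKM in shPCAT1, against 3.65, 4.86 and 3.97 FPKM in shSCR, with a change of -0.50 (limma adjusted p = 0.308). SLC27A4, its relative, had 7.05 to 7.42 FPKM in shPCAT1, against 8.28, 7.46 and 26.0 FPKM in shSCR, where replicate 3 stood far above the rest. The change of SLC27A4 was -0.64 with that library and -0.10 without it. SLC44A2, a choline transporter-like protein, was higher in each shPCAT1 library, at 29.96, 27.8 and 31.8 FPKM, against 23.7, 24.5 and 25.2 FPKM in shSCR, with a change of 0.27 (limma adjusted p = 0.356).

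The acetyl-CoA carrier of the endoplasmic reticulum, SLC33A1, had 17.4, 12.3 and 18.1 FPKM in shPCAT1, against 9.60, 10.7 and 7.59 FPKM in shSCR. Its groups did not overlap, and the change was 0.71 (SE 0.21, limma adjusted p = 0.198), or 0.59 without shSCR replicate 3 (limma adjusted p = 0.144). The nucleoside carriers SLC29A1 (ENT1) and SLC29A2 (ENT2) and the phosphate importer SLC20A1 (PiT1) overlapped between groups, with changes of 0.11, -0.54 and -0.12. Both neurotransmitter carriers tested also overlapped. Of the carriers with no substrate assigned, SLC22A17, a receptor for lipocalin-2, had 2.04, 2.29 and 3.34 FPKM in shPCAT1, against 5.03, 5.41 and 5.58 FPKM in shSCR, without overlap and with a change of -0.85 (SE 0.20, limma adjusted p = 0.128). SLC35A4 was also lower in each shPCAT1 library, with a change of -0.63 (limma adjusted p = 0.356), or -0.32 without shPCAT1 replicate 1.

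The 12 carriers under the filter were listed at low values and were not tested with the rest. In 6 of them every shPCAT1 library lay below every shSCR library and in 1 every one lay above, beside 22.4% and 9.68% of all 1023 genes under the filter. SLC16A3 (MCT4), the lactate exporter of glycolytic cells, was listed at 0.157, 0 and 0.0136 FPKM in shPCAT1, against 1.80, 1.20 and 2.77 FPKM in shSCR. All shPCAT1 values lay near 0, and with the filter removed limma gave it an adjusted p of 0.0665.

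At the level of single transcripts, 0 of 217 carrier transcripts were called by limma, beside 0.0977% of all 20474 transcripts tested, with 21 carrier transcripts at an unadjusted p of at most 0.05 (9.45% of all transcripts passed that bound) and 1 called by the ordinary test (0.342% of all transcripts). Without shSCR replicate 3, SLC38A9-012, SLC38A9-013 and SLC39A8-001 were called, beside 0.42% of all transcripts. SLC39A8-001, on chromosome 4 of hg19 (103182823 to 103266631, minus strand, 9 exons), had 31.7, 32.4 and 34.6 FPKM in shPCAT1, against 14.6, 15.1 and 28.0 FPKM in shSCR.

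Of 24 carrier partners and sensors on the list, 20 were tested and 0 called by limma (4 at an unadjusted p of at most 0.05, 1 higher and 3 lower, beside 7.23% and 10.0% of all genes). The fit that left out shSCR replicate 3 called 3 as lower, namely STK39, MT2A and TXNIP, and none as higher, beside 4.4% of all genes called as lower. TXNIP, which restrains glucose uptake, had 43.4, 42.9 and 45.2 FPKM in shPCAT1, against 96.2, 80.4 and 52.2 FPKM in shSCR. Every shPCAT1 library was lower, and the change was -0.74 (limma adjusted p = 0.219, and 0.0184 without that library). Of 44 transporters tested that have other kinds of name, 0 were called by limma. At an unadjusted p of at most 0.05, 4 were higher and 5 lower, beside 7.23% and 10.0% of all genes, and without shSCR replicate 3, 1 was called as higher and 2 as lower, beside 3.63% and 4.4% of all genes.

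The direction of the differences moved with base composition. The GC content of a gene was that of its matched transcript with the highest mean FPKM, which for SLC38A9 is the short SLC38A9-012. The change was that of the gene sum. Over the 125 carriers the change between shPCAT1 and shSCR had a Spearman rho of -0.611 with this GC content (-0.532 over 10748 genes). It was -0.346 over the carriers without shSCR replicate 3. These values describe genes that share the same 6 libraries. Among the 41 carriers of lowest GC content (35.2 to 43.9%) 34 had a positive change and the median was 0.40. Among the 42 of highest GC content (56.7 to 66.6%) 4 had a positive change and the median was -0.43. Without shSCR replicate 3 these medians were 0.20 and -0.23. SLC38A9, SLC30A1, SLC39A8, SLC39A6 and SLC11A2 lie between 40.7 and 43.6% GC, and SLC43A1, SLC12A7 and SLC26A11 between 58.0 and 61.1%. With GC correction and shSCR replicate 3 left out, 9 of the 13 carriers called without that library were called, among them SLC38A9 (1.29, limma adjusted p = 0.00753), SLC39A8 (1.09, limma adjusted p = 0.0122), SLC43A1 (-1.04, limma adjusted p = 0.0208) and SLC30A1 (0.72, limma adjusted p = 0.042). Of the 65 carriers whose change was at least 0.3 in size, 44 had one more than 1.5 times smaller with GC correction of all 6 libraries. Among those described above, the corrected change was -0.41 for SLC12A7, -0.48 for SLC26A11, -0.37 for SLC22A17, -0.16 for SLC39A1, 0.35 for SLC39A6, 0.16 for SLC12A2, 0.28 for SLC2A12 and 0.19 for SLC7A11. The part of base composition in the differences was not tested further.

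**Figure D5:**
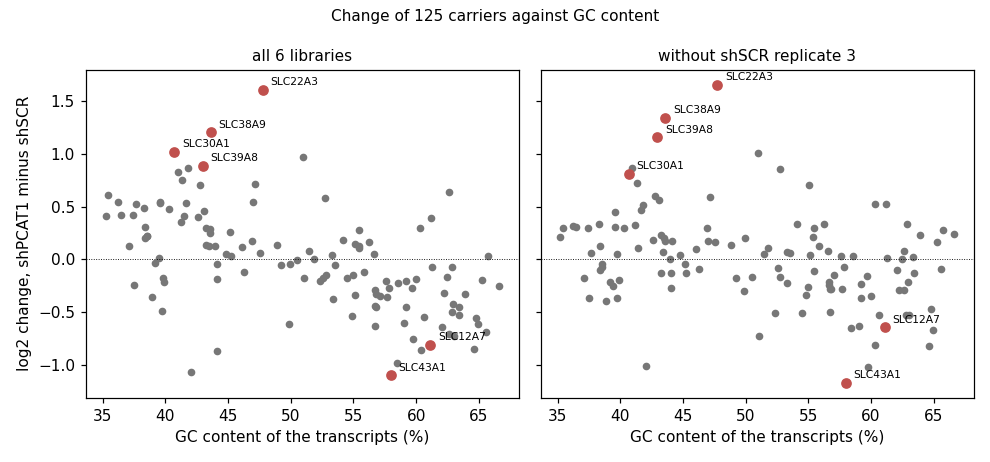
Log2 change (shPCAT1 minus shSCR, y axis, on log2(FPKM + 1)) of the 125 carriers tested against GC content in percent (x axis), with all 6 libraries (left) and without shSCR replicate 3 (right); each point is a carrier and 6 are named in red. The GC content is that of the transcript with the highest mean FPKM of each carrier. Carriers of low GC content lie mostly above 0 and those of high GC content mostly below, less so in the right panel.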

How the data were processed

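Poly(A)-enriched, strand-specific libraries of 6 LNCaP-AI samples were sequenced as single-end reads. The deposited values are FPKM per transcript, computed by the authors with Ballgown. HISAT2 2.0.4 and hg19 are named in the submitters' processing notes and a different aligner in the study's methods, and the aligner used remains unsettled. The 6 comparison columns deposited by the authors (group means on the log2 scale, a log2 fold change, a fold ratio, and p- and q-values) were not used. Counts were not used here, and sequencing depth is therefore unknown. All FPKM under 1 gene name were added up. Genes averaging 1 FPKM or more were tested on log2(FPKM + 1) with limma 3.58.1 in R 4.3.3 (trend and robust), two-sided, with Benjamini-Hochberg adjustment over all 10825 genes. The pseudocount of 1 understates the change of low genes. The study's methods name DEGseq, which needs counts.

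The carriers and gene lists were chosen with earlier results of these data known. Named carriers were those called, the 8 most increased and the 8 most decreased carriers without overlap of groups, the highest and the smallest p in each class with at least 3 tested, and 17 genes chosen by role, of which 16 were listed. Some further values under this rule are not reported here. Other names are said to be outside this rule. GC content came from GENCODE transcripts (97.1% of transcripts matched, and all 137 carriers). Each gene took the value of its matched transcript with the highest mean FPKM. Same-numbered samples did not deviate together (r of -0.024, -0.014 and 0.021), so the numbers were not used as pairs. On simulated data made from these 10825 genes, the fit recovered 18% of 100 genes given a log2 change of 1 and 68% of 100 given a change of 2, with 2 false calls. The simulated noise was independent for each gene. This noise did not hold the shared deviation of shSCR replicate 3, so the false calls under that deviation are unknown. Alternatives were other filters, pseudocount, scalings and models, a replicate block, a GC correction and each library left out. GC correction with shSCR replicate 3 left out was added after seeing the data.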

Additional observations from a re-analysis of the deposited data

How the results depend on the processing

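The calls depended on the settings. The count of carriers called by limma, 2 with all libraries, was 0 with a pseudocount of 0.1, 1 each with upper quartile scaling, quantile normalization and GC correction, and between 0 and 13 when a library was left out, the 13 being without shSCR replicate 3 and 0 without any other. It was 9 with GC correction and without shSCR replicate 3. With the replicate number as a block it was 0, and 0 also with block and GC correction together, but same-numbered samples did not deviate together. The other settings gave the same count within 1.5 times. The count of carrier transcripts called, 0 with all libraries, was between 0 and 3 with a library left out and 1 with GC correction and without shSCR replicate 3.

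The median log2 change of the carriers, -0.04, was 0.030 with a filter at a mean of 5 FPKM, 0.047 with upper quartile scaling, 0.041 with quantile normalization, 0.067 with GC correction, 0.067 with block and GC correction, between -0.051 and 0.027 with a library left out, and 0.019 with GC correction and without shSCR replicate 3.

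Of 39 named carriers with a fit, 9 turned sign in some setting, none of them called with all libraries. With GC correction, with or without the block, the changes became 0.10 for SLC16A13, 0.37 for SLC19A1, 0.33 for SLC1A5 and 0.042 for SLC3A2. With upper quartile scaling and quantile normalization SLC19A1 became 0.025 and 0.011, and SLC1A5 0.030 and 0.055. With a library left out, SLC19A1 ran between -0.27 and 0.34, SLC1A5 between -0.45 and 0.25, SLC29A1 between -0.048 and 0.28 and SLC39A7 between -0.55 and 0.042. With GC correction and without shSCR replicate 3, SLC19A1 was at 0.48, SLC1A5 at 0.16, SLC39A7 at 0.14, SLC27A4 at 0.047, SLC3A2 at 0.054, SLC4A2 at 0.019 and SLC52A2 at 0.056. The causes were not tested.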
